A study of Homo sapiens with 12 samples.

Results

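Neural cells without the catalytic parts of the histone demethylases UTX and JMJD3 were compared after 2 ways of longer culture. Parts of the catalytic domains of UTX (gene KDM6A) and JMJD3 (gene KDM6B) were deleted with CRISPR/Cas9 in the human embryonic stem cell line H1, and puromycin-selected clones gave the dKO cells, which were induced to a neural fate and picked as rosettes of neural progenitor cells (NPCs). The samples labelled dKO-D28 were dKO NPCs plated on Matrigel and kept for 28 days in medium with GDNF, BDNF and cAMP and without bFGF and EGF. The samples labelled dKO-NPC-P4 were dKO NPCs kept as dividing spheres in bFGF and EGF until passage 4. Each state had 2 samples, so the comparison rested on 4 of the 12 samples of the study. The other 8 were early-passage dKO NPCs, early-passage WT NPCs, WT NPCs at passage 4 (WT-NPC-P4) and WT cells at day 28 (WT-D28), with 2 samples each, and WT cells were unedited H1 cells carried through the same steps. Both dKO states carry the double deletion, so their difference is between culture states (medium, attachment and time together) and not between genotypes, and medium, attachment and time cannot be told apart. Genes whose counts averaged 20 or more across all 12 samples were described, which kept 13454 of the 58302 genes in the count tables.

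KDM6A and KDM6B remove methyl groups from lysine 27 of histone H3, a mark that the Polycomb repressive complex 2 writes and that keeps developmental genes silent. Neural progenitors need bFGF and EGF to go on dividing, and they leave the cycle and become neurons or glia when these are withdrawn. Progenitors are marked by SOX2, NES and PAX6, neurons by MAP2, DCX and ELAVL4, and astrocytes by GFAP and AQP4. Neural tissue arises beside surface ectoderm, which becomes epithelium, and the neural crest, whose cells can become mesenchyme, so markers of these neighbours were followed as well.

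The 4 samples held between 3922877 and 5214431 counts, and the 12 samples between 756942 and 10601172. Levels are given as CPM, a gene's count scaled to a common library total, and 3 counts, the smallest number taken as detection, equalled 0.579 to 0.736 CPM in the 4 samples. CPM values were not divided by gene length, so they compare samples for 1 gene and not genes with each other. In bulk RNA a smaller number of cells of 1 type and less RNA per cell cannot be told apart. Nothing in the sources used here states that the 2 samples of a state came from separate cultures. The p-values rest on the spread between samples of the same group, estimated over all 12 samples in 1 fit. That spread may be technical. The deletions removed parts of the genes, and counts over a whole gene do not check them. KDM6A read 31.9 and 27.7 CPM in the dKO-NPC-P4 samples and 59.4 and 32.4 CPM in the dKO-D28 samples, with a log2 difference of 0.61 (SE 0.22, adjusted p = 0.06). KDM6B read 188 and 184 CPM against 146 and 152 CPM, a log2 difference of -0.32 (SE 0.11, adjusted p = 0.041). Neither gene passed the call.

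Relative to counting noise, the 2 dKO-D28 samples differed from each other more than those of any other group. Their chi-square statistic over genes was 11.33 per degree of freedom, against 1.57 to 2.72 in the other 5 groups. In all, 795 of the 13454 genes (5.91%) differed more than 2-fold between them, 583 higher in sample 1 and 212 higher in sample 2. The 2 dKO-NPC-P4 samples differed that much in 108 genes (0.803%), and the shallower early-passage WT samples in 1045 (7.77%). HMGCS1, which makes the precursor of mevalonate, read 1077 and 272 CPM in dKO-D28 samples 1 and 2. PAX3, TFAP2A and TFAP2B had the opposite order, with PAX3 at 5.09 and 31.3 CPM, TFAP2A at 5.82 and 32.2 CPM and TFAP2B at 6.54 and 48.2 CPM in samples 1 and 2. Standard errors, p-values and intervals share 1 estimate of the spread over all groups, so they may be too narrow for dKO-D28. Levels are therefore given below for both samples, and many counts and medians also without 1 of them.

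A gene was called when the unadjusted p was below 0.05 and the fold change above 2, the rule the study used, and p-values from edgeR's quasi-likelihood test, adjusted by the Benjamini-Hochberg method over all 13454 genes, are printed beside the fold changes. A called gene can thus have an adjusted p above 0.05. Fold changes are log2 of dKO-D28 over dKO-NPC-P4 unless stated, and levels set against each other give samples 1 and 2 of dKO-NPC-P4 first and those of dKO-D28 second. The paper started day-28 cultures from NPCs of an earlier passage than 4, so dKO-D28 cells did not come from dKO-NPC-P4 cells. Rose and fell mean higher and lower in dKO-D28 than in dKO-NPC-P4, and not a course in time. Early-passage levels given below come from shallower libraries. By this rule 561 genes (4.17%) rose and 334 (2.48%) fell in dKO-D28. Of these, 482 and 315 also had an adjusted p below 0.05. Both dKO-D28 samples lay above both dKO-NPC-P4 samples in 553 of the 561 genes, and below in 334 of the 334. Among all 13454 genes, called or not, 3748 had such separation higher and 3926 lower, and 4646 had an unadjusted p below 0.05. Counts of these kinds within lists are read against these numbers. With 2 samples in each state, an exact permutation test of 1 gene cannot go below p = 0.333, so the calls borrow their precision from the spread over all genes. The dKO-D28 samples differed more than 2-fold between themselves in 146 of the genes that rose and in 72 of those that fell. Leaving out dKO-D28 sample 1 gave 549 higher and 506 lower, and leaving out sample 2 gave 788 higher and 487 lower. The calls that stood in the same direction when each of the 4 samples was left out in turn were 295 higher and 192 lower.

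For most genes the 2 states were close. The 95% confidence interval of the fold change lay wholly within 2-fold for 9966 of 13454 genes (74.1%), which are called alike here. A further 2593 genes (19.3%) were neither called nor alike, so these data do not place them on either side. The number of alike genes was 8831 with DESeq2, 9097 in a fit of only the 4 samples and 8385 with 99% intervals.

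Epithelial genes rose together in dKO-D28. Of the 9 tested members of the epithelial list, 7 rose and none fell, with a median log2 fold change of 2.69, beside a median of 0.000245 over all 13454 genes. Of all genes tested 4.17% rose. CLDN4, a claudin of tight junctions, read 18.5 and 12 CPM in the dKO-NPC-P4 samples and 135 and 292 CPM in the dKO-D28 samples, a change of 3.804 (SE 0.40, adjusted p = 0.00044). CDH1, the adhesion molecule E-cadherin, read 8.67 and 10.3 CPM against 72.7 and 213 CPM, a change of 3.92 (SE 0.54, adjusted p = 0.0023). EPCAM, an epithelial adhesion molecule, went from 11.2 and 12.5 CPM to 37.6 and 50.9 CPM, a change of 1.901 (SE 0.23, adjusted p = 5.9e-05). In each of these genes both dKO-D28 samples were above both dKO-NPC-P4 samples, and sample 2 was above sample 1. GRHL2, a transcription factor that maintains epithelial identity, had 5 counts in all in the dKO-NPC-P4 samples and 323 in the dKO-D28 samples. Relative to total counts this was a ratio of 55.8-fold (95% counting interval 23.7 to 173). The keratin gene KRT7 rose as well, from 6.32 and 3.68 to 25.9 and 38.8 CPM, a change of 2.69 (SE 0.40, adjusted p = 0.00063). KRT8 and KRT18, keratins of simple epithelia, did not pass the call, with 322 and 304 CPM in dKO-NPC-P4 against 392 and 665 CPM in dKO-D28 for KRT8 and 165 and 165 against 176 and 302 CPM for KRT18. The list's counts summed to 576 and 551 CPM in dKO-NPC-P4 and to 1004 and 1926 CPM in dKO-D28. Leaving out dKO-D28 sample 1 gave 8 called members, and leaving out sample 2 gave 7.

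Among the largest rises was MUC16 (chr19:8848844-9010390, build hg38), a membrane mucin of epithelial surfaces. It read 2.34 and 3.43 CPM in dKO-NPC-P4 and 119 and 215 CPM in dKO-D28, a change of 5.85 (SE 0.47, adjusted p = 0.0017). ST14, the membrane protease matriptase, went from 3.51 and 1.96 to 29.8 and 101 CPM, a change of 4.57 (SE 0.71, adjusted p = 0.0033). Sample 2 was the higher of the dKO-D28 samples in MUC16 and ST14, and both samples were above dKO-NPC-P4. KRT17, a keratin of stressed and basal epithelium, had the reverse order, with 43.6 and 12.5 CPM in dKO-D28 samples 1 and 2 against 1.41 and 1.47 CPM in dKO-NPC-P4. PTGS2 (chr1:186671791-186680922), the inducible cyclooxygenase that makes prostaglandins, was even between the samples, at 43.4 and 52.7 CPM against 2.58 and 1.96 CPM, a change of 4.38 (SE 0.33, adjusted p = 7.6e-07). CPXM2, a carboxypeptidase-like protein, was even as well, at 37.3 and 45.4 CPM against 2.34 and 2.7 CPM, a change of 4.02 (SE 0.26, adjusted p = 1.7e-07). SERPINB2 and GABRP were near 0 in dKO-NPC-P4. SERPINB2, an inhibitor of plasminogen activators, had a ratio of 35.1-fold (95% counting interval 16.8 to 88), and GABRP, a GABA receptor subunit found in epithelia, one of 154-fold (95% counting interval 52.5 to 749.8). Such intervals cover counting error only. DESeq2 did not call MUC16 and GABRP, although it gave log2 changes of 5.87 and 7.24.

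Laminin and hemidesmosome genes moved both ways. COL17A1 and ITGB4, both parts of the hemidesmosome that anchors epithelial cells, rose from 6.56 and 4.9 to 28.6 and 64.3 CPM and from 4.22 and 4.17 to 22.3 and 41.9 CPM. LAMA4 and LAMA2, laminin chains of vessels and muscle, fell from 56.5 and 56.2 to 11.2 and 12.7 CPM and from 28.6 and 26.2 to 12.4 and 7.33 CPM. In the list of integrins and laminins 3 of 21 tested members rose and 3 fell, with a median of -0.32, which was -0.13 without dKO-D28 sample 1.

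Among targets of cAMP signalling more genes rose than fell. The medium of the dKO-D28 cells held cAMP, which acts through protein kinase A and the factor CREB. Of 21 tested members of the cAMP and CREB list, 9 rose, 2 fell and 10 were not called, and the median log2 fold change was 0.81. FOSB, a partner in the AP-1 factor, read 52.9 and 39.5 CPM in dKO-NPC-P4 and 475 and 282 CPM in dKO-D28, a change of 3.03 (SE 0.27, adjusted p = 9.3e-05). FOS, another AP-1 partner, went from 151 and 138 to 1192 and 634 CPM, a change of 2.66 (SE 0.26, adjusted p = 0.00017). NR4A1, an orphan nuclear receptor, went from 16.4 and 10.5 to 102 and 61.8 CPM, a change of 2.59 (SE 0.26, adjusted p = 2e-05). JUNB rose from 38.2 and 36.8 to 116 and 88.4 CPM, a change of 1.44 (SE 0.14, adjusted p = 5.6e-06). In these 4 genes the 2 states did not overlap, and sample 1 was the higher of the dKO-D28 samples. ATF3, a stress-induced factor from another list, was not called, with 119.7 and 110.1 CPM against 185 and 146 CPM, a change of 0.52 (SE 0.13, adjusted p = 0.0082). The 2 members that fell are secreted peptides of the neuronal granule. VGF read 53.9 and 54.7 CPM against 23.5 and 14.5 CPM, a change of -1.53 (SE 0.19, adjusted p = 6e-05), and SCG2, secretogranin II, read 168 and 178 CPM against 46.3 and 8.49 CPM, a change of -2.71 (SE 0.56, adjusted p = 0.017). In WT cells both genes were higher at day 28, with VGF at 4.01 and 6.16 CPM in WT-NPC-P4 and 49.8 and 48.1 CPM in WT-D28 and SCG2 at 88.9 and 93.5 against 587 and 588 CPM.

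CREB binds the cAMP response element, the palindrome TGACGTCA. RefSeq promoter windows (250 bases before the start site to 50 after, build GRCh38.p14) were available for 19 of the 21 members, and 4 held this element on either strand (21.1%), against 346 of the 10106 tested genes with a promoter in the table (3.42%) and 540 of all its 27305 promoters (1.98%). Since the list was chosen as targets of CREB, its larger share follows from that choice and is no result of these data. Of the 9 members that rose, only DUSP1 held the element. The element was also in the window of VGF, which fell, and of SST and PCSK1, which were not called. The DUSP1 and VGF windows are shown because these genes, which were called in opposite directions, both hold the whole element, given in capitals. The windows lie at chr5:172771146-172771445 and chr7:101165520-101165819, both on the minus strand, and read 5′ to 3′.
DUSP1: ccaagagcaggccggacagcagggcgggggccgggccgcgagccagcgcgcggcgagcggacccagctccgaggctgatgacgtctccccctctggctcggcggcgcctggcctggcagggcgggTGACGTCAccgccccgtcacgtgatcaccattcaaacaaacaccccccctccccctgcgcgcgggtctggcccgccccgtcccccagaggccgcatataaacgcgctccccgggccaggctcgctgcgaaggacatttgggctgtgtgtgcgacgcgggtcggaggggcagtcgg
VGF: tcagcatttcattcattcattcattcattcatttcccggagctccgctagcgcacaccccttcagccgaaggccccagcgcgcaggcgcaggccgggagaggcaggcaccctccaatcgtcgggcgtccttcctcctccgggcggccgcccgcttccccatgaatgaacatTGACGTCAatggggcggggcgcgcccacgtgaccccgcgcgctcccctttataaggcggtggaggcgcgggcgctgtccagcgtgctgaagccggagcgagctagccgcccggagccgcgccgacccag
The element starts 125 bases before the start site in DUSP1 and 79 bases before it in VGF. A match describes the letters and not binding.

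Among feedback targets of FGF and EGF signalling more genes fell than rose. Of 18 tested members, 6 fell and 1 rose, with a median of -0.65, while 2.48% of all genes fell. DUSP6, a phosphatase that switches off ERK, read 512 and 498 CPM in dKO-NPC-P4 and 229 and 159 CPM in dKO-D28, a change of -1.39 (SE 0.18, adjusted p = 0.00027). SPRY4, a Sprouty inhibitor of receptor signalling, read 258 and 263 against 82.9 and 23 CPM, a change of -2.33 (SE 0.47, adjusted p = 0.015). SPRY1 went from 302 and 295 to 153 and 112 CPM, a change of -1.18 (SE 0.15, adjusted p = 0.00012), and ETV5, an ETS factor induced by FGF, from 171 and 181 to 97.7 and 74.3 CPM, a change of -1.04 (SE 0.14, adjusted p = 0.00012). The states did not overlap in any of the 4 genes. The early-passage dKO NPCs, which also grew in bFGF and EGF, read 207 and 238 CPM for DUSP6 and 65.3 and 77.1 CPM for SPRY4, below both dKO-NPC-P4 samples in both genes. EGR1, an immediate-early factor, was the member that rose, from 117 and 95.2 to 758 and 511 CPM, a change of 2.58 (SE 0.21, adjusted p = 1.9e-05). SPRY1 and ETV5 were no longer called without dKO-D28 sample 2, at log2 changes of -0.96 and -0.85, and ETV5 was not called without dKO-NPC-P4 sample 2, at -0.99. In all, 8 members fell without dKO-D28 sample 1, with a median of -0.97, and 4 without sample 2, with a median of -0.29. Among FGF ligands and receptors, FGF17, FGF9 and FGF8 rose and FGF12 fell, of 14 tested, with FGF17 at 18.7 and 18.1 against 49 and 36.7 CPM (median 0.31).

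Of 33 tested genes of glycolysis and the response to low oxygen 10 rose and 1 fell, and the median was 0.78. Summed, the list read 8937 and 9151 CPM in early-passage dKO NPCs and 6950 and 6511 CPM in dKO-NPC-P4. In dKO-D28 it read 10889 and 8978 CPM. LDHA, which turns pyruvate into lactate, read 45.2 and 46.1 CPM in dKO-NPC-P4 and 291 and 178 CPM in dKO-D28, a change of 2.36 (SE 0.20, adjusted p = 9e-06). HK2, the inducible hexokinase, went from 28.3 and 21.8 to 107 and 67.4 CPM, a change of 1.79 (SE 0.21, adjusted p = 6.2e-05). PDK1, which keeps pyruvate out of the mitochondrion, went from 14.1 and 15.2 to 78.8 and 36.7 CPM, a change of 1.96 (SE 0.30, adjusted p = 0.0012), and VEGFA, the vascular growth factor, from 54.1 and 50.3 to 171 and 103 CPM, a change of 1.38 (SE 0.19, adjusted p = 0.00023). Sample 1 was the higher of the dKO-D28 samples in all 4, and both samples were above dKO-NPC-P4. Without sample 1, 6 members rose, the median was 0.52 and VEGFA was at 0.99, under the limit. Without sample 2, 14 rose. GAPDH, which was alike by its interval, read 2006 and 1839 against 2942 and 2763 CPM. CA12, a carbonic anhydrase, fell from 105 and 109 to 34.2 and 8.68 CPM, a change of -2.37 (SE 0.47, adjusted p = 0.013).

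Genes of cholesterol synthesis were called only with dKO-D28 sample 1 in the fit. Of 24 tested members 7 rose and none fell, with a median of 0.89. The list summed to 1665 and 1648 CPM in the dKO-NPC-P4 samples, to 4605 CPM in dKO-D28 sample 1 and to 2032 CPM in sample 2. In early-passage dKO NPCs it summed to 4120 and 4352 CPM. HMGCS1 read 199 and 229.8 CPM against 1077 and 272 CPM, a change of 1.65 (SE 0.56, adjusted p = 0.088). DHCR7, which makes the last step to cholesterol, read 45.9 and 42.2 against 128 and 74.5 CPM, a change of 1.19 (SE 0.20, adjusted p = 0.00093). Without dKO-D28 sample 1 none of the 24 was called and the median was 0.20, and without sample 2, 17 rose. Leaving out 1 dKO-NPC-P4 sample left 2 or 3 of the 7.

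**Figure D1:**
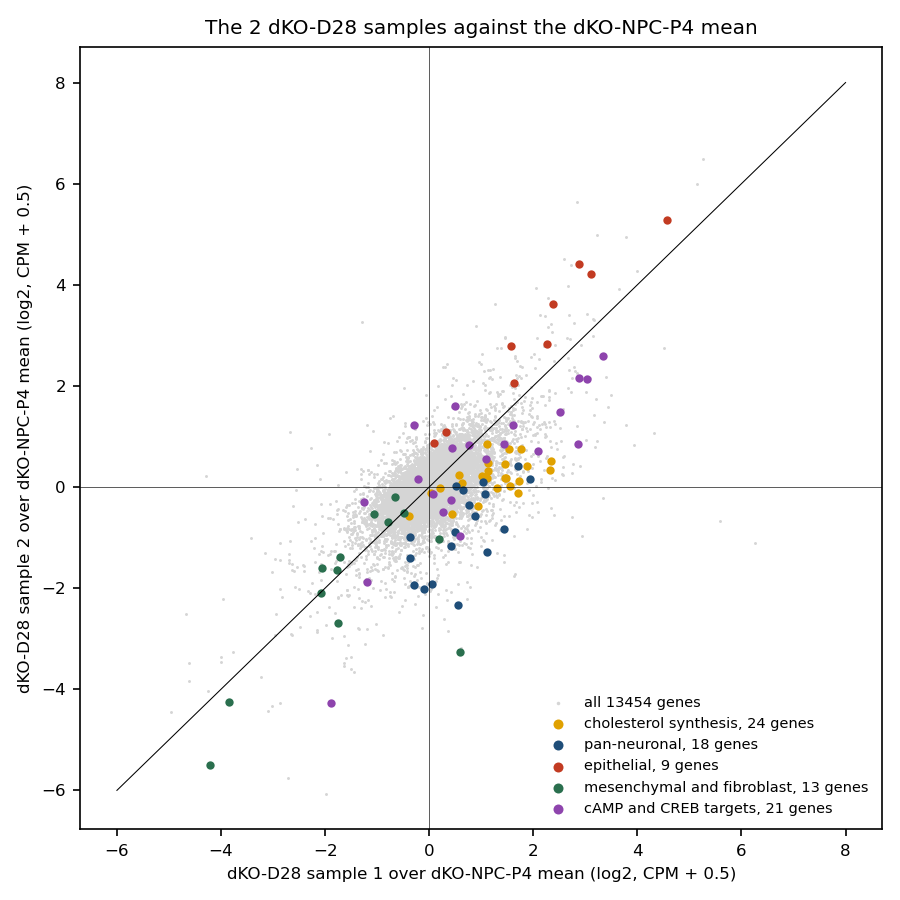
Log2 ratio of each dKO-D28 sample to the mean of the dKO-NPC-P4 samples (CPM + 0.5), sample 1 horizontal and sample 2 vertical, for 13454 genes in grey and 5 lists in colour, with the line on which both samples differ equally. Most cholesterol genes and pan-neuronal genes lie below the line, higher in sample 1, epithelial genes lie on the upper side of it, and most mesenchymal genes lie low in both samples.

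Of 16 tested progenitor genes 3 rose and none fell (median 0.42). In all, 10 were alike (62.5%, against 74.1% of all genes), and 12 had an unadjusted p below 0.05, against 4646 of all 13454 genes. The median was 0.56 without dKO-D28 sample 1 and 0.25 without sample 2. SOX1, an early neural factor, read 49.9 and 45.6 CPM in dKO-NPC-P4 and 117 and 114 CPM in dKO-D28, a change of 1.27 (SE 0.11, adjusted p = 1.9e-06). HES1, a Notch effector that holds progenitors undifferentiated, went from 72.1 and 66 to 185 and 167 CPM, a change of 1.35 (SE 0.11, adjusted p = 8.3e-07). The samples of each state lay close together in both genes and the states did not overlap. SOX2 read 223 and 218 against 358 and 290.1 CPM, NES 703 and 736 against 620.3 and 618 CPM, and PAX6 222 and 212 against 189.6 and 356 CPM, and all 3 were alike. VIM, an intermediate filament of progenitors, was neither called nor alike at -0.82 (SE 0.13, adjusted p = 0.00051), with 4032 and 3986 CPM against 2680.5 and 1852 CPM. With the correction for GC content and length HES1 fell under the limit, at 0.97.

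Of 15 tested Notch genes 6 rose, none fell and 8 were alike (median 0.44), and without dKO-D28 sample 2, 4 rose and 1 fell. HES6, induced in committed neuronal precursors, read 28.3 and 23.3 against 80.7 and 64.3 CPM, a change of 1.48 (SE 0.17, adjusted p = 3.1e-05), and MFNG, which modifies Notch receptors, 1.64 and 1.96 against 20.6 and 7.14 CPM, a change of 2.89 (SE 0.52, adjusted p = 0.0017). The receptors NOTCH1, NOTCH2 and NOTCH3 were alike, with NOTCH2 at 366 and 427 against 412 and 422 CPM. The Notch list summed to 2521 and 2357 CPM in early-passage dKO NPCs and to 1891 and 1961 CPM in dKO-NPC-P4. In dKO-D28 it summed to 2243 and 2498 CPM. Of 14 tested genes of the excitatory cortical lineage 6 rose, none fell and 8 were not called (median 0.80). The median was 0.29 without dKO-D28 sample 1, with 5 that rose, and 1.54 without sample 2, with 8. EOMES, a factor of intermediate progenitors, read 2.81 and 2.7 CPM in dKO-NPC-P4 and 20.6 and 24.3 CPM in dKO-D28, a change of 3.02 (SE 0.21, adjusted p = 2.3e-07). NEUROG1 and NEUROG2, which drive neuronal commitment, were near 0 in dKO-NPC-P4, with 0.703 and 1.23 against 12.6 and 13.9 CPM for NEUROG1 and 0.234 and 0.981 against 8.97 and 4.44 CPM for NEUROG2, ratios of 13.4-fold (95% counting interval 6.59 to 31.7) and 10.4-fold (95% counting interval 4.21 to 33.1). NHLH1, expressed in newborn neurons, went from 2.81 and 3.43 to 24.7 and 17.4 CPM, a change of 2.73 (SE 0.28, adjusted p = 9.8e-06). NEUROD2 and NEUROD6 had no count in any of the 4 samples, which allows up to the 3 counts taken as detection in each. Both stand among the 8 not called and enter the median, although they carry no information on this comparison. Of the 14 changes, 9 were positive and 2 negative. TBR1, of deep-layer neurons, was alike at 30.7 and 24.8 against 29.1 and 17.9 CPM. In the GABAergic lineage DLX2, a factor of interneuron progenitors, rose from 2.34 and 1.72 to 7.27 and 5.6 CPM, while GAD1, which makes GABA, fell from 10.5 and 13.2 to 4.36 and 3.28 CPM. In that list of 14, 2 rose and 1 fell (median 0.41), and without dKO-D28 sample 1 the median was -1.195, with 4 called lower.

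Neuronal genes as a group depended on the dKO-D28 sample. Of 18 tested pan-neuronal genes 2 rose, none fell and the median was 0.28. The list summed to 1547 and 1566 CPM in dKO-NPC-P4, to 2000 CPM in dKO-D28 sample 1 and to 929 CPM in sample 2, so sample 1 was above and sample 2 below both dKO-NPC-P4 samples. ELAVL4, an RNA-binding protein of neurons, read 10.8 and 9.32 CPM against 39.8 and 11.2 CPM, a change of 1.296 (SE 0.55, adjusted p = 0.14), and ELAVL3 25.1 and 21.3 CPM against 76.8 and 31.1 CPM, a change of 1.19 (SE 0.40, adjusted p = 0.073). DCX, a microtubule protein of migrating neurons, read 69.8 and 76.5 against 151 and 78.9 CPM, and STMN2 276 and 279 against 216 and 105 CPM, and neither was called. Without dKO-D28 sample 1 none rose, 7 fell and the median was -0.89, and without sample 2, 6 rose. Without dKO-NPC-P4 sample 2 neither ELAVL3 nor ELAVL4 was called, with ELAVL3 at 1.09. MAP2 and TUBB3 were alike by their intervals, at 325 and 341 against 522 and 320.2 CPM for MAP2.

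Glial genes moved both ways. Of 19 tested radial glia and astrocyte genes 4 rose and 6 fell (median -0.31). GFAP read 6.32 and 9.81 against 5.09 and 6.95 CPM, AQP4 0.703 and 0.49 against 1.7 and 1.54 CPM, and the glutamate transporter SLC1A3 16.4 and 19.9 against 17.2 and 14.7 CPM. FAM107A, a gene of outer radial glia, was near 0 in dKO-NPC-P4 and had a ratio of 10.4-fold (95% counting interval 4.82 to 26.6). CD44, a hyaluronan receptor, fell from 10.5 and 12 to 2.91 and 3.28 CPM, a change of -1.85 (SE 0.27, adjusted p = 0.0002), and SPARCL1, a matrix protein of astrocytes, from 21.3 and 22.8 to 7.51 and 1.35 CPM. Without dKO-D28 sample 1, 1 rose and 4 fell, and without dKO-NPC-P4 sample 1, 2 and 3. The list median was nearer 0 without dKO-D28 sample 2, at -0.07, and without dKO-NPC-P4 sample 2, at -0.06. AQP4 and TNC were no longer called when any 1 of the 4 samples was left out, with log2 changes between 1.16 and 1.66 for AQP4. Among 28 synaptic genes 2 rose and 1 fell (median 0.05), and among 37 receptors and ion channels 2 rose and 3 fell (median 0.12). KCNQ3, a potassium channel subunit, rose from 2.81 and 5.15 to 33.2 and 30.9 CPM, a change of 3.005 (SE 0.24, adjusted p = 8.3e-07), and GRIN2B, an NMDA receptor subunit, fell from 3.51 and 4.17 to 1.21 and 0.772 CPM. Without dKO-D28 sample 1, 10 receptors and channels and 4 synaptic genes were called lower, and without sample 2, 6 of each list were called higher. None of the 3 tested oligodendrocyte genes was called by edgeR or DESeq2, and 2 of them had an unadjusted p below 0.05 (median -0.54).

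Of 10 tested eye-field genes 5 rose and none fell (median 1.14). The list summed to 667 and 578 CPM in early-passage dKO NPCs and to 383 and 328 CPM in dKO-NPC-P4. In dKO-D28 it summed to 598 and 669 CPM. ALDH1A3, which makes retinoic acid in the optic cup, read 7.26 and 4.66 CPM in dKO-NPC-P4 and 52.4 and 68.7 CPM in dKO-D28, a change of 3.34 (SE 0.36, adjusted p = 0.00022). SIX6, of the optic vesicle and hypothalamus, went from 6.09 and 5.64 to 19.6 and 29.1 CPM, a change of 2.06 (SE 0.31, adjusted p = 0.00035). PMEL, a pigment-granule protein, went from 15.5 and 13.2 to 38.1 and 99.4 CPM, a change of 2.27 (SE 0.40, adjusted p = 0.0041). In all 3 both dKO-D28 samples were above dKO-NPC-P4, and sample 2 was the higher. SIX3 was alike, at 48.5 and 39 against 73.9 and 51.7 CPM. In the retinoic acid list of 12, CRABP1, a retinoic acid binding protein, also rose, from 42.2 and 28.4 to 116 and 144 CPM, a change of 1.88 (SE 0.16, adjusted p = 1.7e-06), and DHRS3, which turns retinal back to retinol, fell from 25.1 and 24.5 to 9.45 and 3.09 CPM, a change of -2.03 (SE 0.36, adjusted p = 0.0013) (list median 0.21, and 0.06 without dKO-D28 sample 2).

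**Figure D2:**
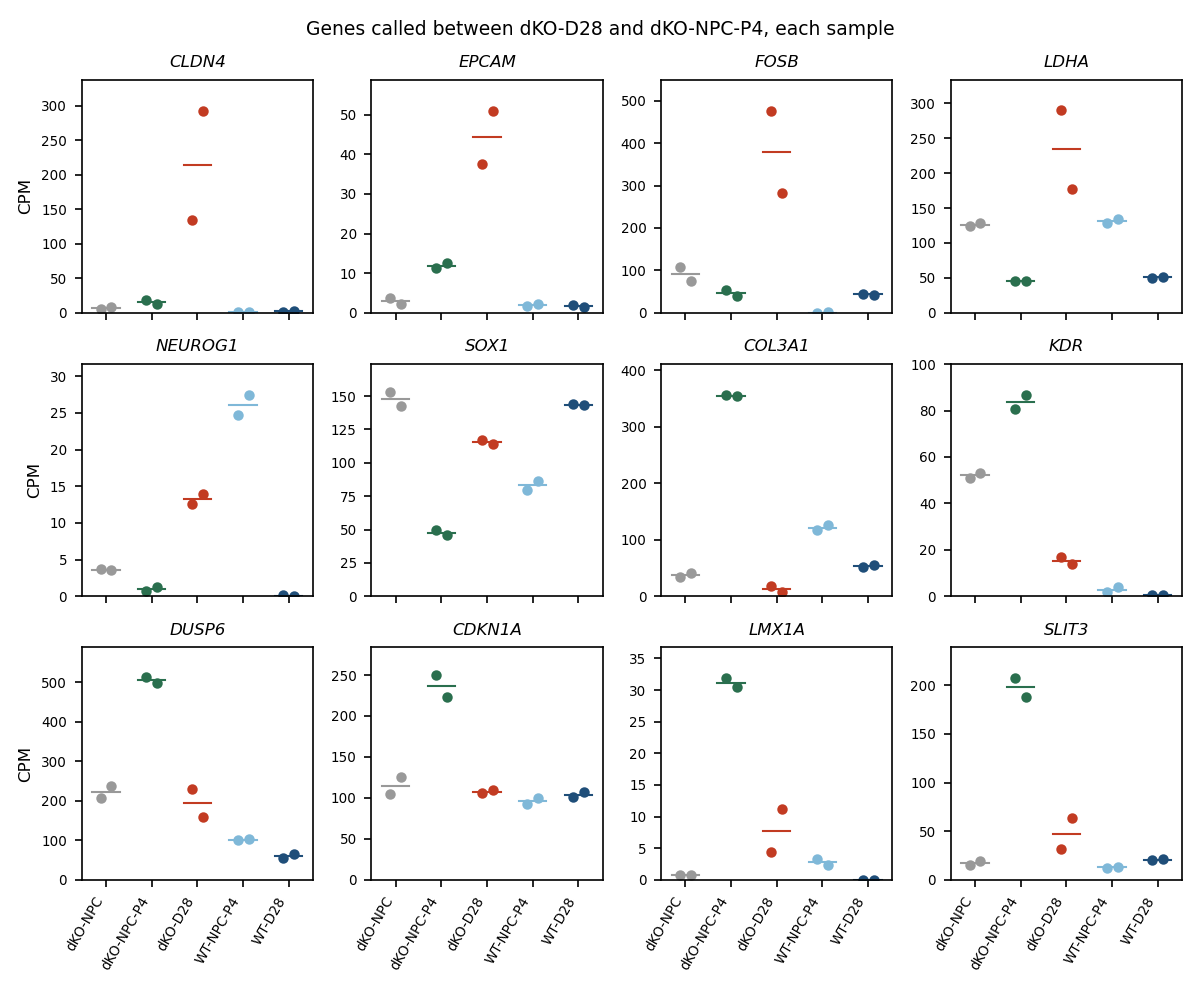
CPM of 12 genes called between the 2 states in each of 10 samples, by group, with each point 1 sample and each bar the mean of 2, and with vertical axes starting at 0. Red dKO-D28 points lie above green dKO-NPC-P4 points in the first 6 genes and below them in the last 6, and early-passage dKO and both WT groups are shown beside them.

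Mesenchymal genes fell together in dKO-D28. Of 13 tested members 7 fell and none rose, with a median of -1.55, beside 2.48% of all genes that fell. COL3A1 (chr2:188974373-189012746), the type III collagen chain, read 357 and 353 CPM in dKO-NPC-P4 and 18.7 and 7.33 CPM in dKO-D28, a change of -4.82 (SE 0.35, adjusted p = 4e-05). COL1A2, a chain of type I collagen, went from 806 and 803 to 189.6 and 189 CPM, a change of -2.09 (SE 0.17, adjusted p = 2.9e-06), and COL1A1 from 512 and 526 to 154 and 79.9 CPM, a change of -2.16 (SE 0.42, adjusted p = 0.013). COL6A3, a chain of type VI collagen, went from 32.1 and 30.4 to 1.7 and 1.16 CPM, a change of -4.45 (SE 0.31, adjusted p = 4.4e-07). In all 4 the states were far apart and the dKO-NPC-P4 samples nearly equal. LUM, a proteoglycan of fibroblast matrix, fell from 12.9 and 14.5 to 3.64 and 4.05 CPM, and ACTA2, smooth muscle actin, from 44.7 and 40 to 12.6 and 16 CPM. The count of falls was 9 without dKO-D28 sample 1 and 8 without sample 2. In the early-passage dKO NPCs COL3A1 read 34.5 and 41.7 CPM, below dKO-NPC-P4, and COL1A1 572 and 676 CPM, above it.

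Of 28 collagen tested, 9 fell and 1, COL17A1, rose, with a median of -0.59. COL8A1, of vessel walls, fell from 20.1 and 22.6 to 2.18 and 0.579 CPM, a change of -4.01 (SE 0.34, adjusted p = 1.7e-06), while COL2A1, the cartilage collagen also made by early neuroepithelium, was alike. Other large falls were in ITGA1 (chr5:52787916-52959209), a collagen receptor chain, from 109 and 132 to 3.39 and 5.02 CPM, a change of -4.81 (SE 0.26, adjusted p = 1.8e-08), and in KDR, the VEGF receptor of endothelium, from 80.6 and 86.8 to 16.7 and 13.9 CPM, a change of -2.46 (SE 0.18, adjusted p = 4.3e-07). KDR was the 1 tested gene of the 10 in the endothelial list, so the other 9 were below the count limit. MMP2, a protease that cuts collagen, fell from 289.5 and 265 to 91.9 and 66.8 CPM, and SDC2, a heparan sulfate proteoglycan, from 335 and 335 to 125 and 99.8 CPM. Of 31 proteoglycans, tenascins and proteases 4 fell and 1 rose (median -0.05), and without dKO-D28 sample 2, 8 fell and 4 rose.

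Of 25 tested genes of the YAP and actin list 7 fell and 1 rose (median -0.58). CAVIN1, a coat protein of caveolae, read 126 and 112 CPM in dKO-NPC-P4 and 8.24 and 12 CPM in dKO-D28, a change of -3.53 (SE 0.24, adjusted p = 4.3e-07), and CAV1, the main caveolin, 18.7 and 21.3 against 2.67 and 6.75 CPM, a change of -2.03 (SE 0.33, adjusted p = 0.00053). TPM2, a tropomyosin, went from 100.2 and 85.6 to 37.1 and 42.6 CPM, a change of -1.22 (SE 0.18, adjusted p = 0.00021). CCN2, a target of YAP, was alike at 191 and 194 against 225 and 217 CPM, and CCN1, another, rose from 130.0 and 126 to 395 and 233 CPM, a change of 1.29 (SE 0.18, adjusted p = 0.00036), which was 0.88 and not called without dKO-D28 sample 1. NT5E, the surface enzyme CD73, was near 0 in dKO-D28, and dKO-NPC-P4 was higher by 34-fold (95% counting interval 14.2 to 106). TM4SF1, a membrane protein of migrating cells, fell from 26.5 and 22.8 to 2.18 and 1.35 CPM, a change of -3.81 (SE 0.33, adjusted p = 1.7e-06).

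Of 16 tested genes of the neural crest and dorsal neural tube 7 fell and 2 rose (median -0.80), and the median was -0.46 without dKO-D28 sample 1 and -1.23 without sample 2. LMX1A and LMX1B, factors of the roof plate, read 31.9 and 30.4 against 4.36 and 11.2 CPM for LMX1A and 18.7 and 26 against 0.97 and 4.44 CPM for LMX1B, changes of -1.96 (SE 0.32, adjusted p = 0.00086) and -2.96 (SE 0.41, adjusted p = 0.00016). Both dKO-D28 samples were below dKO-NPC-P4 in both genes. SNAI2, which drives the exit of crest cells from epithelium, fell from 22.7 and 21.6 to 6.54 and 4.63 CPM, a change of -1.998 (SE 0.31, adjusted p = 0.00035). TFAP2A and TFAP2B, of surface ectoderm and crest, rose, by 3.16 (SE 0.90) and by a ratio of 59.9-fold (95% counting interval 23.1 to 221), but on very unequal dKO-D28 samples, and TFAP2B was not called when either dKO-NPC-P4 sample was left out, although its log2 change was 5.18 or 6.71. PAX7, a dorsal factor, was alike, and PAX3, another, was neither, at 32.1 and 33.1 CPM against 5.09 and 31.3 CPM. Of 25 tested BMP and TGF-beta genes 9 fell and none rose (median -0.35). BMP7 went from 279.9 and 266 to 97.4 and 144 CPM, a change of -1.17 (SE 0.15, adjusted p = 6e-05), and GDF10, a growth factor of the BMP family, from 62.1 and 55.9 to 1.94 and 4.82 CPM, a change of -4.06 (SE 0.44, adjusted p = 0.00017). BMP4 read 20.1 and 17.2 against 9.21 and 19.7 CPM and was not called. The count was 6 of 25 without dKO-D28 sample 1 and 12 without sample 2, where the median was -0.66, and it was 6 without dKO-NPC-P4 sample 1. BMP7 was -0.91 without sample 1, under the limit.

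Wnt genes moved both ways, 5 of 34 higher and 4 lower (median 0.14). WNT8B, made by the cortical hem at the dorsal midline, fell from 99.3 and 105 to 12.1 and 31.5 CPM, a change of -2.200 (SE 0.32, adjusted p = 0.0011), and RSPO3, which enhances Wnt signals, from 34.4 and 36 to 12.1 and 18.3 CPM, a change of -1.19 (SE 0.24, adjusted p = 0.0026). The receptors FZD5 and FZD8 rose, FZD5 from 17.6 and 22.1 to 212 and 90.9 CPM, a change of 2.93 (SE 0.39, adjusted p = 0.0021), and FZD8 from 39.6 and 44.4 to 135 and 81.4 CPM. SFRP1, a secreted Wnt inhibitor, rose from 80.1 and 78.5 to 199.5 and 283 CPM, a change of 1.61 (SE 0.19, adjusted p = 0.00015). RSPO3 and FZD8 were under the limit without dKO-D28 sample 1, at -0.93 and 0.97. Without dKO-D28 sample 2 the count was 4 higher and 8 lower, with a median of -0.31. Of 12 tested Hedgehog genes none was called by edgeR or DESeq2 (median 0.26), although 5 had an unadjusted p below 0.05, and 2 were called higher without dKO-D28 sample 1. Of 23 forebrain patterning genes 3 rose and 2 fell (median 0.38, and 0.57 and 0.17 without dKO-D28 samples 1 and 2). EMX1, of the dorsal telencephalon, rose from 2.34 and 3.19 to 9.7 and 19.3 CPM, a change of 2.41 (SE 0.36, adjusted p = 0.00031). GBX2, a factor of the anterior hindbrain, fell from 49 and 54.2 to 5.58 and 1.93 CPM, a change of -3.83 (SE 0.34, adjusted p = 2.4e-06). OTX1 was neither, at 60.4 and 64 CPM against 14.1 and 69.3 CPM. In the hypothalamic list of 9 tested genes 1, SIX6, rose (median 0.54). That median was 0 without dKO-D28 sample 1 or dKO-NPC-P4 sample 2, and 0.12 with the correction for GC content and length. None of the 32 HOX genes listed reached the count limit.

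Most p53 targets were lower in dKO-D28, though few passed the call. Of 22 tested members 4 fell and 1 rose, and the median was -0.62. CDKN1A, the cell cycle inhibitor p21, read 250.4 and 223 CPM in dKO-NPC-P4 and 105 and 109 CPM in dKO-D28, a change of -1.14 (SE 0.12, adjusted p = 9.7e-06). BAX, which opens mitochondria in apoptosis, went from 81.7 and 69.6 to 32.5 and 36.7 CPM, a change of -1.13 (SE 0.15, adjusted p = 9.7e-05), and FAS, a death receptor, from 28.8 and 25.3 to 7.27 and 11 CPM, a change of -1.55 (SE 0.26, adjusted p = 0.00061). MDM2, the ligase that degrades p53, was not called, at 170.1 and 207 against 105 and 113 CPM, a change of -0.79 (SE 0.12, adjusted p = 0.0004). Both dKO-D28 samples were below both dKO-NPC-P4 samples in 18 of the 22, beside 3926 of all 13454 genes. The early-passage dKO NPCs read 104 and 126 CPM for CDKN1A and 39.8 and 50.2 CPM for BAX, and WT-NPC-P4 92.5 and 99.9 CPM for CDKN1A and 28.4 and 27.7 CPM for BAX, so dKO-NPC-P4 was the highest of these groups in both genes. BTG2 was the 1 member called higher, at 52.7 and 49 CPM against 168 and 56 CPM, and lost the call without dKO-D28 sample 1 or without either dKO-NPC-P4 sample, at 0.15, 1.18 and 1.07. BAX lost its call with the correction for GC content and length, at -0.92. CDKN2B, the inhibitor p15, fell as well, from 55.5 and 56.9 to 15.8 and 9.65 CPM, a change of -2.16 (SE 0.29, adjusted p = 0.00021).

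CASP6 and CASP9, proteases of apoptosis, were alike, with log2 differences of -0.28 and -0.26. Of 25 tested apoptosis genes 2 fell, BAX and FAS, and 1 rose, CFLAR, an inhibitor of death receptor signalling, from 10.3 and 13.5 to 55 and 42.6 CPM, a change of 2.03 (SE 0.21, adjusted p = 9.2e-06) (median -0.16).

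Cell cycle genes were slightly higher in dKO-D28 than in dKO-NPC-P4, mostly without passing the call. Of 35 mitosis genes none was called by edgeR or DESeq2, yet 34 had a positive fold change and the median was 0.60. In 30 the unadjusted p was below 0.05, beside 4646 of all 13454 genes. In 29 both dKO-D28 samples were above both dKO-NPC-P4 samples, beside 3748 of all 13454 genes. MKI67, a marker of dividing cells, read 276 and 290.1 CPM in dKO-NPC-P4 and 414 and 567 CPM in dKO-D28, a change of 0.79 (SE 0.13, adjusted p = 0.0007). TOP2A was alike, at 381 and 410.0 against 525 and 575 CPM. Of 37 replication genes 1 rose, POLE2, and the median was 0.49, with all 37 changes positive. Without dKO-D28 sample 1, 5 mitosis and 4 replication genes were called higher, and the medians were 0.78 and 0.71. Without sample 2 no mitosis gene and 1 replication gene were called, and the medians were 0.45 and 0.16. For MKI67 WT cells had the reverse order, at 109.7 and 116 CPM against 531 and 648 CPM in WT-NPC-P4. The mitosis list summed to 4910 and 5111 CPM in early-passage dKO NPCs. It summed to 2983 and 3144 CPM in dKO-NPC-P4 and to 4072 and 5138 CPM in dKO-D28. The replication list read 3836 and 3773 CPM early, 2704.5 and 2601 CPM in dKO-NPC-P4 and 3031 and 4194 CPM in dKO-D28. In both lists dKO-NPC-P4 was the lowest of these dKO groups.

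Of 44 axon guidance genes 5 rose and 7 fell (median -0.02). SLIT3, a repellent ligand, fell from 208 and 188 to 31.5 and 63.5 CPM, a change of -2.04 (SE 0.25, adjusted p = 0.00028), and SEMA3C, a semaphorin, from 101 and 108 to 29.3 and 36.5 CPM, a change of -1.66 (SE 0.17, adjusted p = 8e-06). SEMA3D rose from 6.32 and 6.38 to 22.5 and 35.5 CPM, a change of 2.196 (SE 0.31, adjusted p = 0.00017), and EPHA4, an ephrin receptor, from 91.6 and 89.3 to 204 and 172 CPM, a change of 1.05 (SE 0.11, adjusted p = 1.1e-05), which was 0.94 and not called without dKO-D28 sample 1. CRH, the corticotropin-releasing hormone, fell from 181 and 169.9 to 8.73 and 10.2 CPM, a change of -4.196 (SE 0.25, adjusted p = 1.7e-07), and was 1 of 3 neuropeptide or granin genes that fell of 10 (median -0.12). NTRK2, the BDNF receptor, fell from 13.8 and 16.2 to 3.15 and 5.98 CPM, a change of -1.67 (SE 0.26, adjusted p = 0.00033), and GFRA1, the GDNF receptor, from 203 and 232 to 83.6 and 31.3 CPM, a change of -1.94 (SE 0.38, adjusted p = 0.011). Of 9 tested genes of the neurotrophin and GDNF pathway 3 fell and none rose, although 5 changes were positive and the median was 0.12. That median was -0.69 without dKO-D28 sample 1 and -0.32 without dKO-NPC-P4 sample 2. Among 17 imprinted and fetal growth genes 3 rose (median 0.24). DLK1, a Notch-like ligand expressed from the paternal allele, rose from 873 and 810.5 to 2131 and 2107 CPM, a change of 1.33 (SE 0.12, adjusted p = 2.9e-06), which fell under the limit with the correction for GC content and length, at 0.74. IGF2, the fetal growth factor, rose from 92.3 and 96.4 to 197 and 468 CPM, a change of 1.82 (SE 0.35, adjusted p = 0.011). IFITM1 was the 1 interferon gene called of 12, lower in dKO-D28 (median -0.08), and L1TD1, of pluripotent cells, was the 1 called higher of 4 pluripotency genes (median 0.79). PRLR, the prolactin receptor, was the 1 choroid plexus gene called of 5, higher in dKO-D28 (median -0.61, and -0.21 without dKO-D28 sample 2). CDKN2C rose beside the 2 cyclin and CDK inhibitor genes that fell, of 19 (median 0.19).

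Lists of machinery common to all cells were read against the 74.1% of all genes that were alike. Of all 13454 genes 4646 had an unadjusted p below 0.05, a share that the Polycomb, unfolded protein and mitochondrial lists below exceeded. Of 67 tested cytosolic ribosomal protein genes 64 (95.5%) were alike and none was called (median 0.06). An unadjusted p below 0.05 was seen in 23 of them, near the share of all genes. Of 23 genes for the H3K27 demethylases and the Polycomb complexes 20 (87%) were alike and none was called (median 0.22), with 11 at an unadjusted p below 0.05. Of 21 BAF chromatin remodelling genes 19 (90.5%) were alike, and DPF1 was called higher, at 6.56 and 3.68 against 11.6 and 9.26 CPM, but not without dKO-D28 sample 1 or dKO-NPC-P4 sample 2, at 0.86 and 0.66 (median 0.10). Of 22 genes of the unfolded protein and ATF4 responses 17 (77.3%) were alike, a share near that of all genes, and none was called (median -0.13), with 10 at an unadjusted p below 0.05. DESeq2 also called none in the ribosomal, Polycomb, unfolded protein and mitochondrial lists. Of 13 mRNAs of the mitochondrial genome 9 (69.2%, below the share of all genes) were alike and none was called (median 0.37), with 6 at an unadjusted p below 0.05, while dKO-D28 sample 2 had the larger share of counts on the mitochondrial genome, at 5.18% against 3.84% in sample 1 and 3.70% and 3.74% in dKO-NPC-P4, and without sample 1, 4 were called higher. The alike genes with the most counts were FN1, ACTG1, ACTB, EEF2 and GAPDH. FN1, the matrix protein fibronectin, read 2089.6 and 2154 CPM against 1351 and 1846 CPM, with a 95% interval of -0.81 to -0.01 for the log2 difference.

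The 2 states also shared differences from WT cells in the same states. The mean of the 2 dKO states was compared with the mean of the 2 WT states, and 1283 genes (9.54%) were higher in dKO and 1395 (10.4%) lower. Of the 9966 alike genes, 646 were called higher and 578 lower in this comparison, which uses the same 4 dKO samples. COL2A1 read 631 and 647 CPM in dKO-NPC-P4, 740.3 and 591 CPM in dKO-D28, 47.8 and 52.4 CPM in WT-NPC-P4 and 6.48 and 8.25 CPM in WT-D28, a log2 difference of dKO from WT of 5.08 (SE 0.10, adjusted p = 7e-15). PAX7 read 60.2 and 59.8 CPM against 70.5 and 62.1 CPM in the dKO states and 18 and 14.4 CPM against 0 and 0 CPM in the WT states. MECOM, a zinc finger factor of blood and epithelium, read 71.7 and 73.8 CPM against 42.4 and 90.9 CPM in dKO and 2.34 and 3.34 CPM against 0.36 and 0.101 CPM in WT. The dKO samples lay above the WT samples in these genes, and the 2 dKO states overlapped in COL2A1 and MECOM. SSC4D and ANXA3, a scavenger receptor family member and an annexin, were higher in the same way, at log2 differences of 5.24 (SE 0.26, adjusted p = 9.2e-11) and 5.199 (SE 0.30, adjusted p = 5.1e-10). In the other direction, SLC1A3, the glutamate transporter of radial glia and astrocytes, read 16.4 and 19.9 against 17.2 and 14.7 CPM in the dKO states against 1781 and 1946 against 265 and 267 CPM in the WT states, a difference of -5.37 (SE 0.13, adjusted p = 7.5e-14). ADGRV1, a large adhesion receptor, read 46.8 and 57.1 against 41.5 and 31.6 CPM against 403 and 406 against 848 and 816 CPM, a difference of -3.74 (SE 0.10, adjusted p = 1.3e-13). GABBR2, a GABA-B receptor subunit, LRRC3B, MAOA, which breaks down monoamines, and DISP2 were lower likewise, by log2 differences between -4.46 (SE 0.12, adjusted p = 6.9e-14) for GABBR2 and -3.88 (SE 0.15, adjusted p = 5.2e-12) for DISP2.

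By list, 9 of 9 tested epithelial genes were higher in dKO than in WT in the mean of the 2 states. So were 14 of 16 of the neural crest and dorsal list, 18 of 28 collagens and 16 of 25 YAP and actin genes. None of the 9 epithelial genes was alike in the 2 dKO states. Their sums were 576 and 551 CPM in dKO-NPC-P4 and 1004 and 1926 CPM in dKO-D28. In WT they were 28 and 22 CPM in WT-NPC-P4 and 25 and 26 CPM in WT-D28. On the lower side were 16 of 18 pan-neuronal genes, 30 of 37 receptors and ion channels, 21 of 28 synaptic genes, 14 of 19 radial glia and astrocyte genes and 12 of 14 GABAergic genes. CLDN4, at 18.5 and 12 CPM in dKO-NPC-P4, read 1.67 and 0.771 CPM in WT-NPC-P4 and 1.8 and 2.62 CPM in WT-D28, and KRT8, at 322 and 304 CPM in dKO-NPC-P4, 11.4 and 11.6 against 8.88 and 8.25 CPM.

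**Figure D3:**
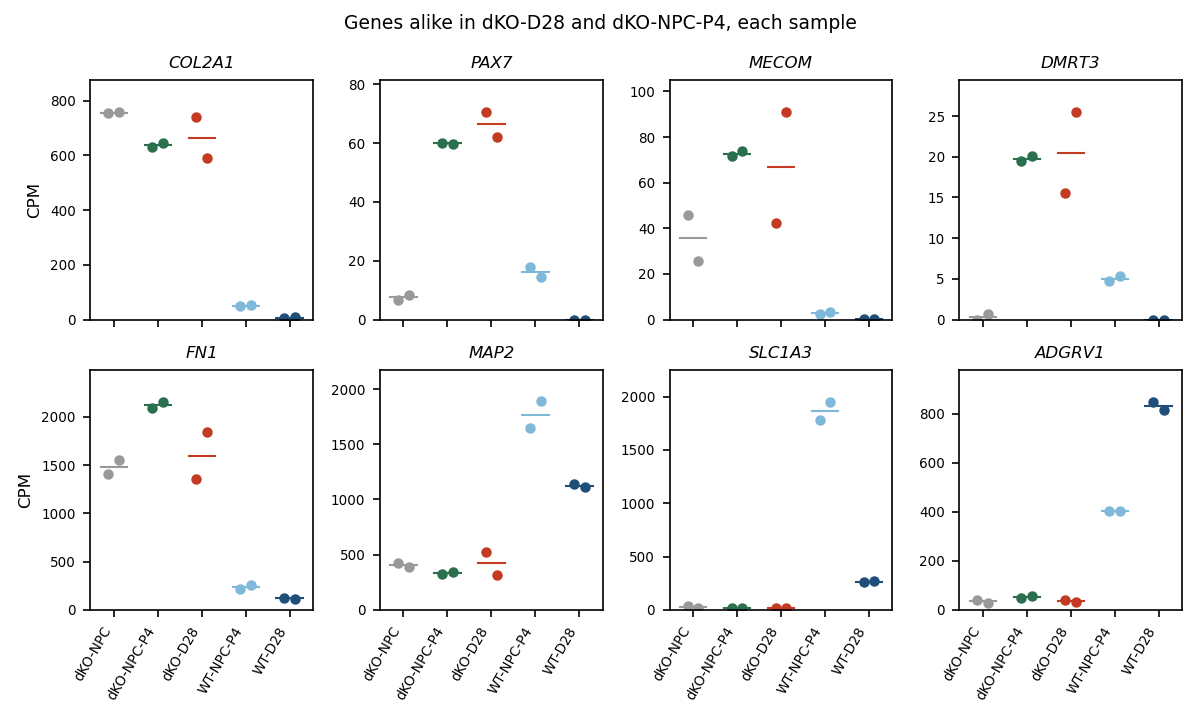
CPM of 8 genes alike in the 2 later dKO states, in each of 10 samples by group, with each point 1 sample, each bar the mean of 2, and vertical axes starting at 0. Green and red dKO points share a range in COL2A1, MECOM, DMRT3, MAP2 and SLC1A3, the red points lie lower in FN1 and ADGRV1 and higher in PAX7, and both blue WT groups lie below them in COL2A1, PAX7, MECOM, DMRT3 and FN1 and above them in MAP2, SLC1A3 and ADGRV1.

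The 2 states shared a shift from the early-passage dKO NPCs. The mean of the 2 later dKO states was higher than the early dKO NPCs in 487 genes (3.62%) and lower in 442 (3.29%), and of the alike genes 173 were higher and 118 lower. DMRT3, a factor of the dorsal telencephalon, had 1 count in the early dKO NPCs and read 19.4 and 20.1 CPM in dKO-NPC-P4 and 15.5 and 25.5 CPM in dKO-D28. DMRTA2, a related factor, read 1.5 and 1.41 CPM early, then 30.2 and 29.2 CPM in dKO-NPC-P4 and 15 and 27.6 CPM in dKO-D28, a later minus early difference of 4.09 (SE 0.49, adjusted p = 3.3e-05). RBM47, an RNA-binding protein of epithelia, read 2.25 and 0.707 CPM early, then 31.6 and 27.2 CPM in dKO-NPC-P4 and 18.2 and 34.7 CPM in dKO-D28. PTHLH, the parathyroid hormone-like hormone, went the other way, from 35.3 and 30.4 CPM early to 3.75 and 3.43 CPM in dKO-NPC-P4 and 3.88 and 2.51 CPM in dKO-D28, and so did CXCL14, a chemokine, and F13A1, a clotting factor subunit, by -2.51 (SE 0.28, adjusted p = 2e-05) and -2.57 (SE 0.24, adjusted p = 4.8e-06). NKX2-1, a factor of the ventral forebrain, read 88.6 and 117 CPM early and at most 1.94 CPM in the 4 later dKO samples. In the YAP and actin list 14 of 25 were lower in the mean of the later states and none higher. Of 9 tested epithelial genes 6 were higher in that mean, but none of the 9 was alike in the 2 states. The epithelial list summed to 390 and 461 CPM early, 576 and 551 CPM in dKO-NPC-P4 and 1004 and 1926 CPM in dKO-D28.

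The early libraries differ from the later ones in more than passage. They held 1337776 and 1438807 counts, and 1.66% and 1.73% of them lay on the mitochondrial genome, against 3.70% to 5.18% in the 4 later dKO samples. RPL21, a ribosomal protein gene with many pseudogenes, read 15 and 7.78 CPM early, 168 and 128 CPM in dKO-NPC-P4 and 194 and 133 CPM in dKO-D28. RPL17P6, RPS20P14, GTF2IP1, TUBBP2 and SRGAP2B also have near-identical copies, and their counts are uncertain where reads fit more than 1 copy. The WT samples showed the same split, with RPL21 at 9.14 and 2.98 CPM in early-passage WT NPCs and 209 and 182 CPM in WT-NPC-P4. Depth and mitochondrial share are traits of whole libraries. For every gene in the comparison of later with early dKO states, passage or culture and library set therefore cannot be told apart.

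The difference between day 28 and passage 4 was compared between the genotypes. The difference of dKO-D28 from dKO-NPC-P4 exceeded that of WT-D28 from WT-NPC-P4 by more than 2-fold at p below 0.05 in 1373 genes (10.2%) and fell short of it in 1401 (10.4%). All 35 mitosis genes and 27 of 37 replication genes were on the higher side. In WT the mitosis list summed to 4152 and 4560 CPM in WT-NPC-P4 and to 1144 and 1196 CPM in WT-D28. The replication list summed to 2224 and 2123 CPM in WT-NPC-P4 and to 1187.5 and 1237 CPM in WT-D28. Between the 2 dKO states no mitosis gene and 1 replication gene were called. EOMES, higher in dKO-D28, read 402 and 413 CPM in WT-NPC-P4 and 0.6 and 0.503 CPM in WT-D28. COL8A1 fell in dKO but read 4.01 and 5.91 CPM in WT-NPC-P4 and 39.4 and 38.8 CPM in WT-D28, a difference between the genotypes of -6.95 (SE 0.43, adjusted p = 1.2e-08). ITGA1 fell in dKO from 109 and 132 to 3.39 and 5.02 CPM, and in WT read 2 and 4.37 against 3.6 and 3.62 CPM, a difference of -4.93 (SE 0.47, adjusted p = 1e-06). FOS read 45.8 and 40.1 CPM in WT-NPC-P4 and 526 and 529 CPM in WT-D28, and its difference between the genotypes, -0.97 (SE 0.36, adjusted p = 0.07), did not pass the call.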

How the data were processed

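RNA was extracted with TRIzol, made into TruSeq libraries and sequenced on a NextSeq. The deposited values are raw read counts per gene, which the authors made with HISAT2 2.0.4, SAMtools 1.3.1 and HTSeq 0.6.0 on hg38 (versions from the submitters' processing notes). The annotation release and the use of strand are not given in the sources used here, so genes that overlap, have antisense partners or near-identical copies are uncertain. Each sample had 1 count file. Samples were grouped by GEO's labels.

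The 13454 genes of 58302 whose counts averaged 20 or more were fitted in edgeR 4.0.16 (R 4.3.3, limma 3.58.1) with TMM factors, 6 group means and a robust quasi-likelihood test. Calls needed a fold above 2 and an unadjusted p below 0.05, as in the study's methods, and p-values were adjusted by the Benjamini-Hochberg method. Later and early dKO states, dKO and WT, and the genotype by state difference were contrasts of the same fit. Contrasts share samples, so they are not independent. "Alike" means a 95% interval of the log2 fold change within 1 of 0. Ratios of genes near 0 carry exact conditional binomial 95% intervals. CPM values are per total count. The script was tested on simulated data. Gene symbols and coordinates came from the annotation table, and promoters from RefSeq (GRCh38.p14).

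The comparison, the 47 gene lists and the tests were chosen with earlier results of these data known. Genes were named by rule: KDM6A and KDM6B, genes the study names, the 8 largest called changes each way and the 3 largest with fewer counts in the lower group, up to 4 called genes each way and the first 4 of each list, the 6 largest each way among alike genes in 2 further contrasts, the 5 largest each way for the genotype by state difference, and the 5 most abundant alike genes. DUSP1 was named for its promoter after its values were seen. Searches for 2 further promoter motifs were void, since fewer than 80% of the members had a promoter in the table. Alternatives were DESeq2 1.42.0, other factors and count limits, a replicate block, a correction for GC content and length, a fit of 4 samples, and each sample left out in turn. A lone sample was then taken to vary like the other groups.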

Additional observations from a re-analysis of the deposited data

Results flagged for a closer look

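The difference between day 28 and passage 4 differed between the genotypes, by the test of the difference itself, in 1373 genes on the higher side and 1401 on the lower side. The 10 largest by the naming rule are given with their fitted log2 differences. Several rest on samples at or near 0, where the fitted value depends on the prior count and is no bound, so the CPM values are given as well, samples 1 and 2 at passage 4 first and those at day 28 second.

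On the higher side were NEUROG2 (14.21), BHLHE22 (12.50), EOMES (12.48), NEUROG1 (11.29) and TFAP2C (11.08). NEUROG2, a proneural factor, read 0.234 and 0.981 CPM in dKO-NPC-P4, 8.97 and 4.44 CPM in dKO-D28, 163 and 152 CPM in WT-NPC-P4 and 0.12 and 0 CPM in WT-D28. BHLHE22, a factor of cortical neurons, read 0.468 and 0 against 0.727 and 1.35 CPM in dKO and 118 and 128 against 0 and 0.101 CPM in WT. NEUROG1 read 24.7 and 27.5 against 0.12 and 0.101 CPM in the WT states and EOMES 402 and 413 against 0.6 and 0.503 CPM. These genes were high in WT-NPC-P4 and near 0 in WT-D28, while the dKO samples were higher at day 28. For BHLHE22 the dKO difference rests on 2 counts in dKO-NPC-P4 and 10 in dKO-D28. Its ratio of 4.32-fold has a 95% counting interval of 0.92 to 40.6, which includes no difference. TFAP2C, of the surface ectoderm, read 7.5 and 11 against 6.54 and 23 CPM in dKO and 40.4 and 42.6 against 0 and 0 CPM in WT.

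On the lower side were HMX3 (-9.47), C1QL2 (-8.84), INSRR (-7.92), SST (-7.69) and LHX6 (-7.11). Among the 4 groups compared these genes were high in WT-D28 alone, so their differences rest on the WT samples. The ratio of dKO-NPC-P4 over dKO-D28 was 2.78-fold for INSRR (95% counting interval 0.91 to 10.1). It was 1.16-fold for SST (0.22 to 6.21) and 2.31-fold for LHX6 (0.33 to 25.6). All these intervals include no difference. SST, the peptide somatostatin, read 0.703 and 0.245 CPM in dKO-NPC-P4, 0.97 and 0 CPM in dKO-D28, 0 and 0.257 CPM in WT-NPC-P4 and 32.5 and 33.6 CPM in WT-D28. LHX6, a factor of cortical interneurons, read 0.703 and 0.245 against 0.485 and 0 CPM in dKO and 0 and 1.03 against 40.8 and 40.5 CPM in WT. HMX3 read 0.234 and 0 against 0.242 and 0.193 CPM in dKO and 0 and 0 against 37.8 and 35.1 CPM in WT, C1QL2 0.234 and 0 against 0 and 0 CPM in dKO and 0 and 0.257 against 16.6 and 16.9 CPM in WT, and INSRR 0.937 and 1.96 against 0.97 and 0.193 CPM in dKO and 1 and 0 against 43.6 and 44.8 CPM in WT.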

How the results depend on the processing

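Of the 155 named genes that were called, 106 kept their call under all 10 alternatives fitted to them, and none of these calls reversed. With every detected gene in the fit (1 count or more in some sample), 1378 were higher and 873 lower in dKO-D28, 1137 and 1533 in the later dKO states than in early dKO NPCs, and 2866 and 2463 in dKO than in WT, and 2348 were lower for the genotype by state difference. With at least 10 counts in every sample the counts were 252 and 121, 90 and 254, 704 and 762, and 908 and 741. These limits change how many genes are tested. Leaving out each of the 4 samples gave 316 to 506 genes lower in dKO-D28, and 549 to 788 higher. The labels only number the samples, and the deviations of same-numbered dKO-NPC-P4 and dKO-D28 samples had a correlation of -0.0457, so they were not taken as pairs. With a replicate block 554 genes were higher and 344 lower, and ELAVL4 lost its call. DESeq2 called 575 higher and 325 lower, of which 539 and 322 were shared with edgeR. A fit of only the 4 samples compared called 510 higher and 322 lower, with 502 and 316 shared. In that fit 3 cholesterol genes and 0 pan-neuronal genes rose. The correction for GC content and length gave 587 and 381, with 473 and 284 shared. Over the alternatives 390 list medians moved by less than a limit scaled from the list's median difference between the 2 dKO-D28 samples, and 70 by more. That limit is widest where these samples differ most, so it does not show which medians are steady. The cholesterol median went from 0.89 to 0.20 without dKO-D28 sample 1, within its limit of 0.70. The sign of 12 list medians changed when 1 dKO-D28 sample was left out. Without sample 1 these were the pan-neuronal, GABAergic, neurotrophin, axon guidance, synaptic, and receptor and ion channel lists. Without sample 2 they were the Wnt, Hedgehog, interferon, unfolded protein, axon guidance, neuropeptide and imprinted lists. The axon guidance median also changed sign without dKO-NPC-P4 sample 1, and the neurotrophin, interferon, ribosomal and synaptic medians without dKO-NPC-P4 sample 2. With the correction for GC content and length the axon guidance and synaptic medians did. Depth limits the early-passage samples most, where 3 counts equal 2.12 to 3.92 CPM.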
